A study of Homo sapiens with 6 samples.

Results

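Long noncoding RNAs (lncRNAs) that act in the nucleus or carry small nucleolar RNAs (snoRNAs) in their introns were examined in MDA-MB-231, a cell line from a human breast cancer of the triple-negative kind. The names looked for were MALAT1, NEAT1, GAS5, SNHG1, SNHG5, SNHG6, SNHG8, SNHG12, SNHG15 and SNHG16, and a row of the deposited gene table was taken where its symbol was exactly one of them. Of these 10 names, 5 had such a row, MALAT1, GAS5, SNHG5, SNHG6 and SNHG16, among 66381 rows in all. The other 5 were counted in assembled loci that also name small RNAs, and are given beside them as merged loci. In the 5 merged loci, all small-RNA entries lay inside the lncRNA's own span and on its strand, and the longest was 159 bases. All 10 rows passed the filter on low values.

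RNA was sequenced from 3 libraries of cells transfected with a mimic and 3 of a control group; whether polyadenylated RNA was selected is not stated. A mimic is a synthetic RNA built to act like a microRNA, and the series title names miR-5001-5p while the design text asks for downstream targets and pathways. The labels give no oligonucleotide sequence, dose or time, and do not spell out what "nc" in the control titles stands for. No genetic change was labelled in either group, and the line is the only cell source of both. The labels do not say whether replicates came from separate cultures, and p-values therefore measure the spread between these libraries, which may be technical. A bulk library cannot tell fewer cells of a kind from less RNA in each cell.

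The libraries held 31643826 to 32363456 counts each. Of the 11260 rows tested, 1534 were higher and 972 lower in mimic (edgeR quasi-likelihood test, adjusted p under 0.05); scaled to library totals, the split was 1136 higher and 1783 lower. Among 8 genes chosen as markers of the line, 7 reached 1 FPKM (fragments scaled by row length and by library total), led by VIM at 434 to 571 FPKM, while SPARC stayed at or below 0.216. Among 8 hormone receptor, HER2 and luminal genes chosen as low in this line, 4 reached 1 FPKM: KRT19 at 74.1 to 81.4, ERBB2 at 3.95 to 4.71, FOXA1 at 1.47 to 2.58 and GATA3 at 1.15 to 1.81. Another 3 stayed below it, CDH1 at up to 0.101, EPCAM at up to 0.21 and ESR1 in a merged locus at up to 0.0311, and PGR had no row. Markers of blood, endothelial and liver cells that had a row, 4 of 6, reached at most 0.104 FPKM.

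MALAT1 is a long nuclear RNA kept in speckles, the bodies that store splicing factors, and NEAT1 is the RNA around which paraspeckles assemble. The SNHG genes and GAS5 are spliced transcripts whose introns are cut out and trimmed into snoRNAs, which guide chemical changes on ribosomal and spliceosomal RNA, while the spliced exons are often degraded by nonsense-mediated decay. Several snoRNA hosts start with a run of pyrimidines like that of ribosomal protein mRNAs, the 5′ terminal oligopyrimidine (TOP) tract, which ties their translation to growth signals. MALAT1 and the long NEAT1 form end in a triple helix in place of an added poly(A) tail, so a library made from polyadenylated RNA need not capture them in full, whereas the short NEAT1 form is polyadenylated.

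The microRNA named in the title is printed to show which letters were looked for in the lncRNAs. Its seed, bases 2 to 8, is in capitals, and the sequence is that of RefSeq (GRCh38.p14, chromosome 2, 232550530 to 232550553, minus strand).
hsa-miR-5001-5p: aGGGCUGGacucagcggcggagcu
The complement of that seed, CCAGCCC, was searched on the sense strand of every GENCODE 29 transcript of the 10 lncRNAs. It was in none of the 17 MALAT1, 29 GAS5, 25 SNHG1, 23 SNHG5, 5 SNHG6, 5 SNHG8, 17 SNHG12, 10 SNHG15 and 8 SNHG16 transcripts. The whole stretch was required, and shorter matches, which some of these transcripts hold, are not counted here. The whole stretch was found only in NEAT1. There it was in 1 of 8 transcripts, the long form, which is 22743 bases long and holds it once, at base 5980. Among the 616 tested single-gene rows annotated as lncRNA, 28.7% had a transcript with these letters. The site is printed with its flanks, the match in capitals (GRCh38, chromosome 11, 65428767 to 65428793, plus strand).
NEAT1 long form: tccaggacctCCAGCCCtgcactgcct
A match is a stretch of letters, not a shown binding site.

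Starts of the lncRNAs are printed because 4 of them moved with the median of the ribosomal protein genes from library to library, as described further on. RefSeq (GRCh38.p14) gave 8 windows for 7 of the 10 names. NEAT1, SNHG15 and SNHG6, which is among those 4, had no window. Each line shows 10 bases before the annotated start and 20 from it on, with the longest run of C and T among the 10 bases on either side of the start in capitals; the search was on the sense strand. The windows are chr6:85678714-85678743 for SNHG5, chr4:118278752-118278781 for SNHG8, chr1:28581854-28581883 for SNHG12, chr11:62855866-62855895 for SNHG1, chr17:76557754-76557783 for SNHG16 and chr1:173869026-173869055 for GAS5.
SNHG5: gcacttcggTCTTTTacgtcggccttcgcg
SNHG8: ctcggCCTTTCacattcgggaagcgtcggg
SNHG12: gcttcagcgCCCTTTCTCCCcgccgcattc
SNHG1: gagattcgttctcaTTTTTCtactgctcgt
SNHG16: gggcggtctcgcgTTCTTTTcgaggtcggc
GAS5: tcatgaaTTCagatgtgtttattttggagc
A run of at least 6 was present in 6 of the 8 windows, against 22.2% of 35116 windows of all genes and 72.5% of 80 windows of ribosomal protein genes. The run covers the annotated start base in SNHG5, SNHG8, SNHG12 and 1 of a pair of MALAT1 windows, whose longest runs were 11 and 2 bases; the r of MALAT1 with the ribosomal protein median, given further on, was 0.211. In SNHG8 and that MALAT1 window the run ends at the start base, and its other bases lie upstream of the transcript. Only in SNHG5 and SNHG12 does a run that covers the start base go on into the transcript. In GAS5 the longest run was 3 bases; this RefSeq start lies upstream of the gene span in the deposited table, which ends at 173868882. The length of run was chosen after the values had been seen.

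None of the 5 lncRNAs with a row of their own passed the test between mimic and control, and neither did any of the 5 merged loci (edgeR, adjusted p from 0.077 to 0.534 over the 10). In all tested rows 22.3% passed, 13.6% higher and 8.63% lower. At an unadjusted p under 0.05, 1 of the 5 lncRNAs and 3 of the 5 merged loci stood, against 36.4% of all rows. DESeq2 called 1 of the 5, SNHG16, and 1 of the merged loci, SNHG15, against 27% of all rows. The median log2 fold change (mimic minus control) was 0.07 for the 5 and -0.32 for the merged loci, with -0.01 over all tested rows. Together the 5 lncRNAs took 387, 447 and 358 CPM (counts scaled to the library total) in the control libraries and 354, 365 and 469 in the mimic libraries, so the groups overlapped, with 398 ± 45.6 against 396 ± 63.5 (mean ± SD, n = 3 each).

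In FPKM, which scales by row length, SNHG5 was the highest and the NEAT1 locus the lowest. The order of mean levels over 6 libraries was SNHG5 (60.4), SNHG6 (44.7), the SNHG8 locus (27.4), the SNHG1 locus (20.05), GAS5 (17.5), SNHG16 (9.70), MALAT1 (6.41), the SNHG15 locus (5.83), the SNHG12 locus (3.50) and the NEAT1 locus (2.67). The ranges of neighbours over the 6 libraries did not overlap between SNHG6 and the SNHG8 locus, between GAS5 and SNHG16, and between the SNHG15 and SNHG12 loci, and overlapped for the other neighbours. Within each library SNHG5 was nevertheless above SNHG6, and the SNHG8 locus above the SNHG1 locus. The table's lengths equal the union of GENCODE 29 exons for 8 of the 10. They are 2794 against 2806 bases for SNHG5 and 3377 against 4266 for SNHG12. Because NEAT1 is scaled by 22767 bases, a library that holds mainly the short form gets a low FPKM; the share of each form was not analysed here.

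**Figure D1:**
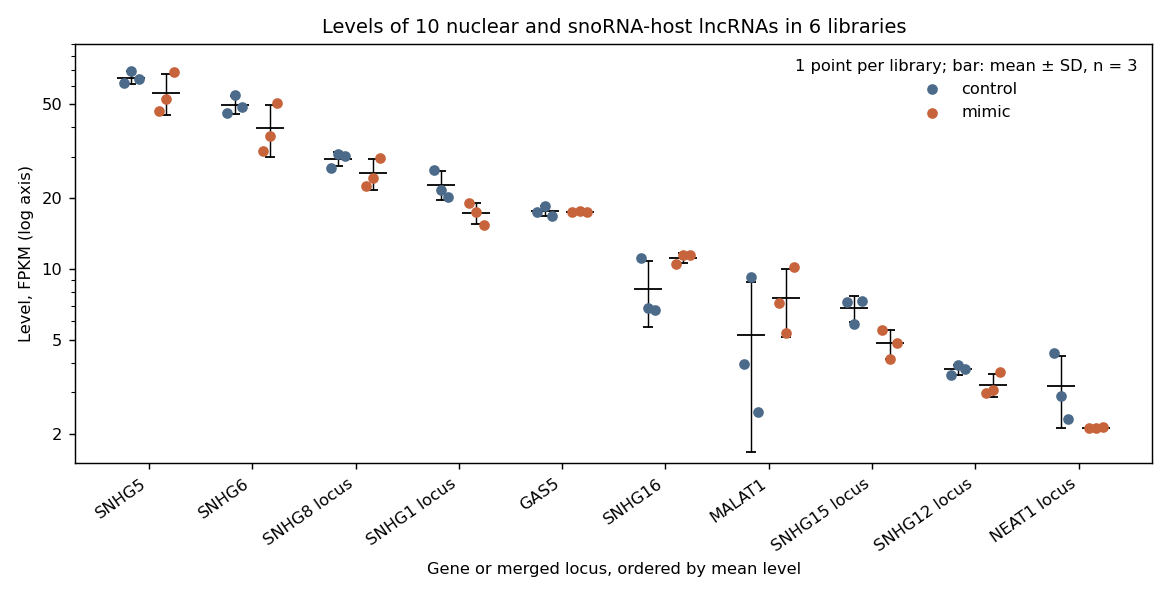
Level of each lncRNA or merged locus in FPKM (log axis) in the 3 control and 3 mimic libraries; each point is 1 library, the bar is the mean and the whiskers the SD (n = 3). MALAT1 ranges from 2.48 to 10.2 FPKM with both groups mixed, while the 3 mimic libraries lie below the 3 control libraries for the SNHG1, SNHG15 and NEAT1 loci.

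MALAT1 (ENSG00000251562), the speckle RNA, lies on chromosome 11 from 65497688 to 65506516 on the plus strand (GRCh38, as are all spans from the table). Its counts were 1135, 2624 and 694 in control replicates 1 to 3 and 2038, 1510 and 2890 in mimic replicates 1 to 3, or 3.97, 9.25 and 2.48 against 7.20, 5.37 and 10.2 FPKM. Control replicate 2 stood above 2 of the 3 mimic libraries, and the groups overlapped. MALAT1 was among the most variable rows within a group: its coefficient of variation (CV) was 67.9% in control and 31.999% in mimic, and 99.3% and 93.8% of tested rows had a lower one. The log2 fold change of 0.61 ± 0.48 (SE) did not pass the test (edgeR adjusted p = 0.403), and its 95% interval runs from -0.52 to 1.74. Without control replicate 2 the log2 fold change was 1.32 and passed (adjusted p = 0.0466; over the 14 alternatives the adjusted p was up to 0.689), and without control replicate 3 it was 0.28. GENCODE 29 places 1 gene, AP000769.2, on the opposite strand with a span that overlaps that of MALAT1. Spans also overlap for ZBTB37 and GAS5, MCMDC2 and SNHG6, TRNAU1AP and SNHG12, and AC015802.6 and SNHG16. Whether their exons overlap was not examined. Where exons do, reads could not be told apart, as the strandedness is not given.

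NEAT1, the paraspeckle RNA, was counted in a locus with 3 short entries known by RF numbers, on chromosome 11 from 65422774 to 65445540 on the plus strand. Its counts were 3243, 2120 and 1669 in control and 1553, 1544 and 1564 in mimic, or 4.401, 2.90 and 2.32 against 2.13, 2.13 and 2.13 FPKM. All mimic libraries lay below all control libraries, with control replicate 1 far above the others. The mimic libraries differed by less than counting alone would give: their CV was 0.198%, against the 2.54% that their mean count implies. The same held for GAS5 in mimic, with 0.503% against 2.22%. The locus was 1.43-fold lower in mimic with a log2 fold change of -0.51 ± 0.22, which did not pass (edgeR adjusted p = 0.136; 95% interval -1.02 to -0.0021). Without control replicate 1 the log2 fold change was -0.21, and without control replicate 3 it was -0.69 and passed (adjusted p = 0.0464; up to 0.253 over the 13 alternatives). An exact two-sided permutation test gave p = 0.1 for this locus and for the SNHG1 and SNHG15 loci, the smallest that 3 against 3 libraries allow. In 45.9% of all tested rows, and 29.7% with mimic lower, the FPKM of the groups did not overlap, which sets the scale for these 3 of 10.

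GAS5 (ENSG00000234741, chromosome 1, 173863900 to 173868882, minus strand), the host of a series of box C/D snoRNAs, ranged least of the 10. Its highest FPKM over the 6 libraries was 1.10-fold its lowest. Within groups its CV was 4.88% in control and 0.503% in mimic, and 35.5% and 0.337% of tested rows had a lower one. Among the 10, the SNHG12 locus had a lower CV in control and the NEAT1 locus in mimic. Its counts were 2058, 2159 and 1929 in control and 2026, 2032 and 2049 in mimic, or 17.5, 18.5 and 16.8 against 17.4, 17.6 and 17.5 FPKM. By counts and FPKM the mimic values fell inside the control range. With the TMM scaling of the edgeR test, mimic replicate 3 was highest. It stood at 0.049 in log2 CPM relative to the mean, against 0.043 in control replicate 2. The log2 fold change was 0.07 ± 0.06 (edgeR adjusted p = 0.462) with a 95% interval of -0.08 to 0.21, so a change beyond 1.16-fold upward or to below 0.949 of control lies outside that interval. Its sign turned to -0.01 when library totals set the scale and in limma on log2 FPKM. The antisense gene GAS5-AS1 had at most 8 counts in a library.

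SNHG1, the host of box C/D snoRNAs including SNORD22, was counted in a locus on chromosome 11 (62851988 to 62855914, minus strand). Its counts were 3209, 2625 and 2409 in control and 2286, 2090 and 1868 in mimic, or 26.4, 21.7 and 20.3 against 19.0, 17.5 and 15.5 FPKM. The groups did not overlap. The log2 fold change of -0.32 ± 0.12 did not pass (edgeR adjusted p = 0.0929; 95% interval -0.60 to -0.05). Scaling to library totals gave -0.40, which passed (adjusted p = 0.0491), as did the fit with the replicate number as a block (-0.32, adjusted p = 0.035), among alternatives whose adjusted p reached 0.246; without control replicate 1 it was -0.20.

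SNHG15, whose intron holds the box H/ACA snoRNA SNORA9, was counted in a locus on chromosome 7 (44983023 to 44986961, minus strand). Its counts were 859, 684 and 846 in control and 647, 482 and 570 in mimic, or 7.28, 5.84 and 7.33 against 5.53, 4.15 and 4.86 FPKM. All mimic libraries lay below all control libraries, the nearest pair being control replicate 2 and mimic replicate 1. The log2 fold change of -0.42 ± 0.14, 1.33-fold lower, had the smallest adjusted p of the 10 (edgeR, 0.077; 95% interval -0.75 to -0.08). The locus passed in 5 of 14 alternatives, among them DESeq2 (log2 -0.41, adjusted p = 0.0331) and the replicate block (-0.42, 0.0423), and its adjusted p reached 0.208 in the others.

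SNHG16 (ENSG00000163597; chromosome 17, 76557766 to 76565348, plus strand), the host of the SNORD1 snoRNAs, had counts of 1938, 1174 and 1142 in control and 1816, 1963 and 1974 in mimic, or 11.2, 6.81 and 6.73 against 10.6, 11.5 and 11.4 FPKM. Control replicate 1 stood with the mimic libraries, and the other control libraries were lower. A log2 fold change of 0.52 ± 0.20, 1.43-fold higher, did not pass (edgeR adjusted p = 0.106; 95% interval 0.05 to 0.98). It passed in DESeq2 (adjusted p = 0.0334) and without control replicate 1, where it was 0.80 (adjusted p = 0.00292), and its adjusted p reached 0.251 without control replicate 3.

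**Figure D2:**
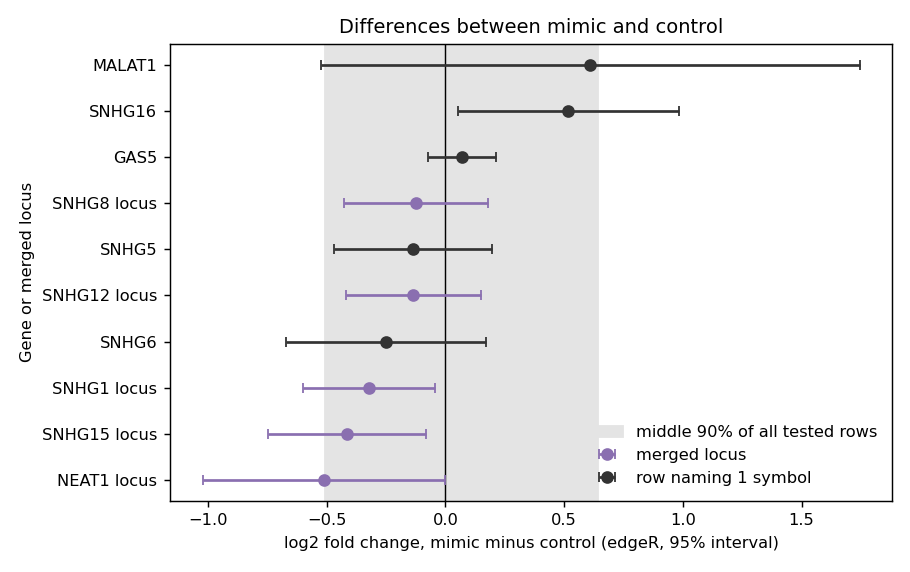
Log2 fold change (mimic minus control) of each lncRNA or merged locus with its 95% interval from edgeR (3 libraries per group); the grey band holds the middle 90% of all tested rows, from -0.51 to 0.64. The interval of MALAT1 is the widest, from -0.52 to 1.74, and that of GAS5 the narrowest, from -0.08 to 0.21; none of the 10 passed at an adjusted p under 0.05.

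SNHG5 (ENSG00000203875; chromosome 6, 85660950 to 85678736, minus strand), the host of SNORD50A and SNORD50B, had counts of 5557, 6224 and 5636 in control and 4204, 4675 and 6149 in mimic. In FPKM these were 61.5, 69.3 and 63.7 against 46.9, 52.5 and 68.4. Mimic replicates 1 and 2 lay below all control libraries and mimic replicate 3 among them. Mimic minus control was -0.13 ± 0.14 on the log2 scale (edgeR adjusted p = 0.534; 95% interval -0.47 to 0.20). It was -0.30 without mimic replicate 3 (adjusted p = 0.0528) and -0.01 without mimic replicate 1.

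SNHG6 (ENSG00000245910; chromosome 8, 66921684 to 66926398, minus strand), the host of SNORD87, had counts of 1849, 2196 and 1925 in control and 1271, 1451 and 2034 in mimic, or 45.8, 54.8 and 48.8 against 31.8, 36.5 and 50.7 FPKM. The same mimic replicates, 1 and 2, were low and mimic replicate 3 was inside the control range. Its log2 difference between groups was -0.25 ± 0.18 (edgeR adjusted p = 0.357; 95% interval -0.67 to 0.17). Without mimic replicate 3 it was -0.46 and passed (adjusted p = 0.0382), and without mimic replicate 1 it was -0.10 (adjusted p = 0.701).

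The SNHG8 locus, with SNORA24, on chromosome 4 (118278709 to 118279823, plus strand), had counts of 804, 910 and 884 in control and 664, 715 and 881 in mimic, or 26.9, 30.7 and 30.3 against 22.4, 24.3 and 29.7 FPKM. Its log2 fold change was -0.12 ± 0.13 (edgeR adjusted p = 0.53; 95% interval -0.43 to 0.18). The SNHG12 locus, with SNORA16A, SNORA44 and SNORA61, on chromosome 1 (28578538 to 28582983, minus strand), had counts of 390, 427 and 402 in control and 322, 332 and 398 in mimic, or 3.57, 3.93 and 3.76 against 2.97, 3.08 and 3.66 FPKM. In both loci mimic replicates 1 and 2 lay below all control libraries and mimic replicate 3 did not. The SNHG12 locus had a log2 fold change of -0.14 ± 0.12 (edgeR adjusted p = 0.463; 95% interval -0.42 to 0.15). Neither passed in any alternative run.

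SNHG5, SNHG6 and the SNHG8 and SNHG12 loci varied together from library to library, and with the median of the 58 ribosomal protein genes tested in rows of their own. Log2 CPM was taken here with the TMM-scaled library sizes of the edgeR test, not with library totals. In these values relative to its mean, SNHG5 was at -0.00, 0.18 and 0.05 in control and at -0.32, -0.15 and 0.24 in mimic. The ribosomal protein median was at -0.00, 0.08 and 0.02 in control and at -0.16, -0.06 and 0.12 in mimic. On this scale the libraries stood in the same order, with mimic replicate 1 lowest and mimic replicate 3 highest, and SNHG5 moved over a wider range. By library totals SNHG5 was instead highest in control replicate 2, at 69.3 FPKM against 68.4 in mimic replicate 3. The correlations that follow are on the TMM scale. As a description over 6 libraries that share depth and scaling, Pearson's r with that median was 0.997 for SNHG5, 0.976 for SNHG6, 0.958 for the SNHG8 locus and 0.954 for the SNHG12 locus, and Spearman's rho was 0.943 to 1. Without mimic replicates 1 and 3, the 2 farthest out, r over the other 4 libraries ran from 0.8995 (SNHG8 locus) to 0.996 (SNHG5). For deviations from the group means over 6 libraries it was 0.954 to 0.998. Over all tested rows 1.44% had an r of at least 0.9, and so did 4 of the 10 lncRNAs; this threshold was chosen after the values had been seen. Of the 58 ribosomal protein genes, which themselves make up the median, 25 (43.1%) reached it, with a median r of 0.882.

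GAS5 and the SNHG1 locus, hosts known for TOP tracts, did not share this pattern, with r of 0.0902 and -0.142. MALAT1 was at 0.211, the NEAT1 locus at 0.166, the SNHG15 locus at 0.0694 and SNHG16 at -0.298. Of 14 further snoRNA-host lncRNAs tested alone or in merged loci, 0 reached 0.9; the ZFAS1 locus had 0.878, SNHG29 (LRRC75A-AS1 in the table) 0.848 and DANCR 0.824. Of the 58 ribosomal protein genes 2 (3.45%) passed between mimic and control in edgeR, 1 in each direction, and 6 in DESeq2. Over all tested rows 22.3% passed in edgeR and 27% in DESeq2. RPL29, which encodes a protein of the large ribosomal subunit, was higher (log2 0.29 ± 0.06, edgeR adjusted p = 0.0183). The RPL29 call ended without control replicate 1 or 3 (adjusted p up to 0.0615). What moved these genes together between libraries was not tested.

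**Figure D3:**
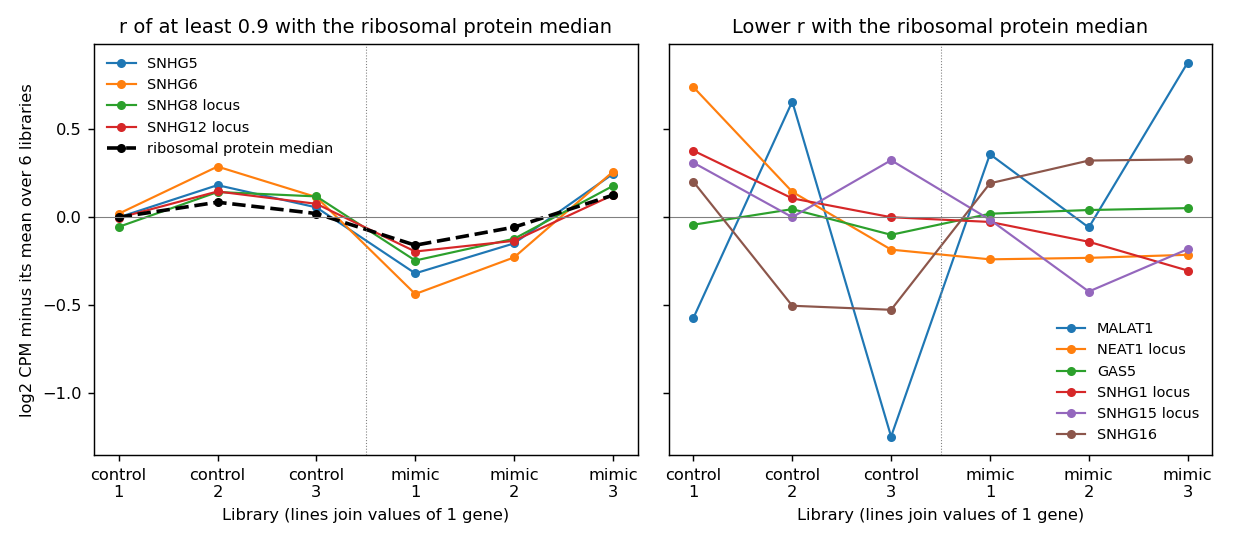
Log2 CPM (TMM-scaled library sizes) of each lncRNA or merged locus minus its own mean over the 6 libraries. Lines only join the values of 1 gene, and replicates have no order. On the left, SNHG5, SNHG6 and the SNHG8 and SNHG12 loci follow the dashed ribosomal protein median, with SNHG5 from -0.32 in mimic replicate 1 to 0.24 in mimic replicate 3; on the right, MALAT1 ranges from -1.25 to 0.87 and GAS5 from -0.10 to 0.05.

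Rows with the pattern most like that of MALAT1, NEAT1 and GAS5 were listed among the single-gene rows, as a description. They were ranked by Pearson's r of log2 CPM, again on the TMM scale, over the 6 libraries. For MALAT1 they were ZNF300 (r = 0.998), TRIM24 (0.993) and FBXO36 (0.991), and for the NEAT1 locus PPP6C (0.982), GBE1 (0.974) and SFTA1P (0.971). For GAS5 they were MRPL23-AS1 (0.993), RPL4P4 (0.989) and HSBP1L1 (0.978). None of these 9 rows passed the test between mimic and control, and 0.518 to 0.527% of rows reached an r of at least 0.9 with each of the 3. GAS5 and MALAT1 had an r of 0.937 with each other, although their spread differed, with an SD of 0.06 for GAS5 and 0.80 for MALAT1 in log2 CPM.

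Among genes that work with these lncRNAs, calls were made in both directions. In all tested rows 22.3% passed in edgeR, 36.4% had an unadjusted p under 0.05 and DESeq2 called 27%. Among other snoRNA-host lncRNAs 0 of 8 tested alone passed, with 2 at an unadjusted p under 0.05 and 0 in DESeq2; the smallest p were those of SNHG18 (log2 0.30 ± 0.12, edgeR adjusted p = 0.127) and SNHG32, C6orf48 in the table (-0.16 ± 0.06, adjusted p = 0.132). Of 6 merged loci of that list, 1 fell, the SNHG7 locus (log2 -0.55 ± 0.13, adjusted p = 0.0221), and its call ended without control replicate 1 and mimic replicates 1 and 2 (adjusted p up to 0.0715). Of other spliced or nuclear lncRNAs 0 of 3 passed (2 at an unadjusted p under 0.05, 0 in DESeq2), with PVT1 at 0.28 ± 0.09 (adjusted p = 0.0791) and NORAD at 0.11 ± 0.04 (adjusted p = 0.098). Of 30 snoRNAs known to lie in these hosts, none had a row of its own, 6 were named in merged loci and 24 had no row.

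Protein-coding snoRNA hosts held 4 higher and 1 lower of 5 tested alone, and their median was 0.27 on the log2 scale. In all tested rows 22.3% passed. NCL, which encodes the nucleolar protein nucleolin, was at 92.3 ± 1.80 FPKM in control and 146 ± 4.71 in mimic, a rise of 1.66-fold (log2 0.73 ± 0.04, edgeR adjusted p = 9.4e-05). IPO7, a nuclear import factor gene, HSPA8, a chaperone gene, and WDR43, a ribosome assembly gene, each rose by 0.26 to 0.27 on the log2 scale. EEF2, the translation elongation factor gene, fell by 0.14 (adjusted p = 0.0418), and its call ended in 5 of 6 fits that left out 1 library (adjusted p up to 0.13). A further 8 merged loci of this list held 1 higher and 1 lower.

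Of 13 snoRNP proteins, which package snoRNAs, 4 were higher and 1 lower (median log2 0.04). That is 38.5%, against 22.3% of all tested rows. FBL, which encodes the methyltransferase fibrillarin of box C/D particles, fell, from 95.9 ± 4.56 FPKM in control to 61.7 ± 3.28 in mimic (log2 -0.56 ± 0.06, edgeR adjusted p = 0.00126). NOP58, another box C/D core gene, rose from 31.5 ± 0.62 to 37.3 ± 2.29 FPKM (0.32 ± 0.06, adjusted p = 0.00928), and SHQ1, an assembly factor of box H/ACA particles, rose 1.73-fold (0.79 ± 0.13, adjusted p = 0.00611). NAF1, another H/ACA assembly factor, was called at 0.22 ± 0.06 (adjusted p = 0.0366) and lost the call in all 6 fits that left out 1 library (adjusted p up to 0.101), as did the fifth called gene, ZNHIT6 (up to 0.121); neither passed with library totals (0.119 and 0.177).

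Of 13 paraspeckle proteins, 4 were higher and 2 lower (median log2 0.03), beside the NEAT1 locus that did not pass. The calls made up 46.2% of the 13, against 22.3% of all tested rows. NUDT21, a 3′ end cleavage factor gene, rose, from 33.3 ± 0.40 FPKM in control to 39.4 ± 1.19 in mimic (log2 0.32 ± 0.04, edgeR adjusted p = 0.00246). RBMX, which encodes an RNA-binding protein, rose by 0.46 (adjusted p = 0.00285), and CIRBP, the cold-inducible RNA-binding protein gene, fell by 0.38 (adjusted p = 0.00855). The 3 merged loci of the list held 1 higher, the TARDBP locus (0.74 ± 0.13, adjusted p = 0.00923).

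Of 16 nuclear speckle proteins, 4 were higher and 0 lower (median log2 0.07), or 25% against 22.3% of all tested rows. At an unadjusted p under 0.05 there were 6, against 36.4% of all rows, and DESeq2 called 4, against 27%. CLK1, a kinase that phosphorylates SR splicing proteins, rose 1.44-fold (log2 0.52 ± 0.09, edgeR adjusted p = 0.00698), PNN by 0.28 and SRRM1 by 0.25. The SRRM1 call ended without control replicate 3 (adjusted p = 0.0547), and that of THOC2 (0.25 ± 0.06) in 5 of 6 fits that left out 1 library (up to 0.0914); with library totals neither passed (0.0543 and 0.0948).

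Of 19 factors of nonsense-mediated decay, the pathway that degrades many spliced snoRNA-host transcripts, 2 were higher and 1 lower (median log2 -0.05). Calls covered 15.8% of these factors, against 22.3% of all tested rows. EIF4A3, which encodes the anchor of the exon junction complex, fell 1.58-fold, from 41.3 ± 0.77 FPKM in control to 24.8 ± 0.70 in mimic (log2 -0.66 ± 0.04, edgeR adjusted p = 0.000169). SMG1, which encodes the kinase of UPF1, rose from 13.8 ± 0.47 to 17.6 ± 0.84 FPKM (0.43 ± 0.05, adjusted p = 0.00145) and GSPT1, a translation termination factor gene, by 0.29 (adjusted p = 0.0119). Of 13 genes that trim the MALAT1 end or degrade nuclear RNA, 3 were higher and 0 lower (median log2 0.24). That is 23.1%, against 22.3% of all tested rows. At an unadjusted p under 0.05 there were 3, against 36.4% of all rows, and DESeq2 called 3, against 27%. The 3 called in edgeR were EXOSC10 (0.39 ± 0.06, adjusted p = 0.0049), a nuclear exosome nuclease gene, ZCCHC7 (0.37 ± 0.08, adjusted p = 0.0156) and DIS3 (0.24 ± 0.06, adjusted p = 0.038). The ZCCHC7 call ended without control replicate 3 (0.055) and the DIS3 call in 5 of 6 fits that left out 1 library (up to 0.108), and DIS3 did not pass with library totals (0.113).

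**Figure D4:**
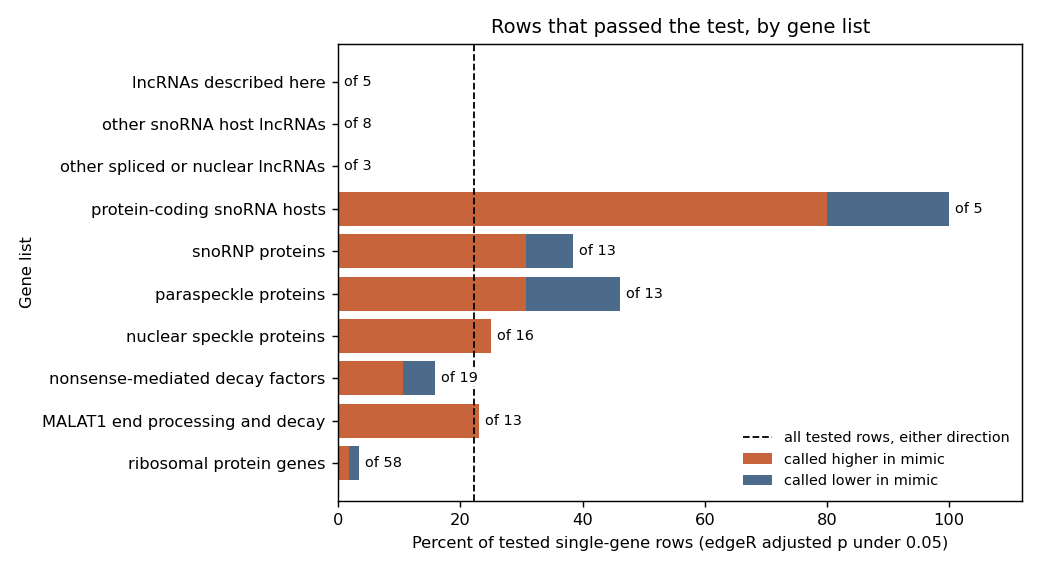
Percent of tested single-gene rows called higher or lower in mimic (edgeR adjusted p under 0.05) in each gene list, with the number tested beside each bar and a dashed line at 22.3%, the share of all tested rows. The 5 lncRNAs with rows of their own and the other lncRNA lists have no called row, and 2 of 58 ribosomal protein genes are called.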

How the data were processed

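Per the submitters' processing notes, cutadapt 1.9 and FastQC were used and the genome build was GRCh38 (hg38). The sources used here do not give the aligner, counter, annotation release or strandedness. The deposited table gives each library's raw counts and its FPKM, per the file headers; the authors' FPKM equal, in the values, the count over a row length and the library's total. Rows that name no gene (38792, holding 2.46 to 2.70% of counts) stayed out of library sizes and tests.

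EdgeR 4.0.16 (R 4.3.3; glmQLFit, glmQLFTest, TMM scaling, two-sided, Benjamini-Hochberg) tested the counts of 11260 rows that reached 1 FPKM in 3 or more of the 6 libraries. The SE came from the log2 fold change and F. When counts for this comparison were simulated on those rows, 50 genes were changed per size. The calls covered 6% of the 1.25-fold changes, 38% of the 1.5-fold, 78% of the 2-fold and 94% of the 3-fold. These were 3, 19, 39 and 47 true calls, beside 15 false calls among 11060 unchanged rows. In the data 22.3% of rows passed, a far larger share than was changed in the simulation, so its rates need not hold for the data. Alternatives used DESeq2 1.42.0, limma 3.58.1, other scalings and filters, and each library left out. Libraries of a group differed by more than sampling noise in every pair (lowest chi-square over its degrees of freedom, 27.1). Members and gene lists were chosen with earlier results of these data known. Named genes are the 10 lncRNAs, markers, up to 4 called genes of each list by p (up to 2 where none was called), and the 3 rows most like MALAT1, NEAT1 and GAS5. EEF2, ZNHIT6, the SNHG7 and TARDBP loci and the hosts named for their r were chosen after their values were seen. Not every gene that the rule selects is reported here. GENCODE 29 and RefSeq (GRCh38.p14) supplied sequences. Python 3.11.15, pandas 2.3.3, scipy 1.17.1 and matplotlib 3.10.9 were used.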

Additional observations from a re-analysis of the deposited data

How the results depend on the processing

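Of 138 log2 fold changes of the 10 lncRNAs under alternatives, 123 kept their direction and side of the threshold, 12 passed the threshold that the reported values did not, and 3 turned sign, all GAS5: -0.0105 with library totals, and -0.00739 and -0.00771 in limma on log2(FPKM + 1) and log2(FPKM + 0.1). No result was computed for the NEAT1 and SNHG12 loci over rows of at least 5 FPKM, which they did not reach. The number of the 5 lncRNAs called higher was 0 to 1 without 1 library and 1 in DESeq2, and called lower 0 to 1 without 1 library. Merged loci called lower numbered 2 with library totals, 2 with the replicate block, 1 in DESeq2, 1 in limma with either pseudocount, and 0 to 1 without 1 library. Rows called lower were 1783 with library totals, 1707 and 1680 in limma with pseudocounts of 1 and 0.1, and 473 to 842 without 1 library. With the replicate number as a block, 1250 rows were higher and 672 lower. Deviations of libraries with the same number had an r of -0.0498 to 0.0672, and those with different numbers -0.0644 to 0.0703. The labels do not say whether libraries were paired by number, and these values cannot settle it. Without SNHG5 the summed level of the others was 216 CPM in control and 239.7 in mimic. The lowest counts were those of the SNHG12 locus, 322 to 427 per library, where counting alone gives a coefficient of variation of 4.96 to 5.34%.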
